A study of Mus musculus with 32 samples.

Results

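Heterotrimeric G protein subunits and Rgs proteins, the core of signalling from G protein-coupled receptors, were examined in the olfactory bulbs of mice that were either controls or mutant for Tshz1. Members were the genes whose symbol is Rgs, Gnb or Gng followed by a number, or Gna followed by a number or by i1 to i3, o, q, s, l, t1, t2 or z, and that had a probe above background (detection p under 0.05) on at least 4 of the 32 arrays; Gng4, Gng8 and Gng13 were excluded. The rule gave 31 members out of 43 matching symbols, among 16593 named genes on the array and 10412 named genes detected on at least 4 arrays. They comprised 8 alpha subunits (Gna11, Gna12, Gna13, Gnai2, Gnaq, Gnas, Gnat1 and Gnaz), 4 beta subunits (Gnb1, Gnb2, Gnb4 and Gnb5), 6 gamma subunits (Gng2, Gng3, Gng5, Gng7, Gng10 and Gng11) and 13 Rgs proteins (Rgs2 to Rgs10, Rgs12, Rgs16, Rgs17 and Rgs19). Just inside the condition lay Gng11, detected on 8 arrays, Rgs6, detected on 15, and Rgs19, detected on 16. Just outside lay Rgs14, detected on 3 arrays, and Gnb3 and Gnal, each on 2. The other symbols left out, which were Gna14, Gna15, Gnai3, Gnat2, Gng12, Rgs1, Rgs13, Rgs18 and Rgs20, were detected on 0 or 1 array. The alpha subunit of Go, an abundant neuronal G protein, is listed as Gnao1, which the rule does not match, and it is given below only beside the members.

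A G protein is held inactive as a complex of an alpha subunit bound to GDP and a beta-gamma dimer. An activated receptor makes the alpha subunit exchange GDP for GTP, after which the alpha subunit and the dimer each act on effectors: Gs and Golf stimulate adenylyl cyclase, Gi, Go and Gz inhibit it, and Gq and Gna11 activate phospholipase C-beta. Rgs proteins speed the hydrolysis of GTP and so end the signal. In the olfactory bulb these pathways modulate the dendrodendritic synapses between mitral or tufted cells and inhibitory interneurons.

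The series measured total RNA of whole bulbs on 32 single-channel Illumina bead arrays, 8 in each of 4 groups, on a strain background labelled C57/BL6;129/Ola; CD1 mixed. At E18.5 (E for embryonic day), controls carried Tshz1 GFP/+ and mutants Tshz1 GFP/delta, both Nestin +/+. At P30 (P for postnatal day), controls carried Tshz1 flox/+ and mutants Tshz1 flox/GFP, and all animals of both groups also carried Nestin +/Cre, which drives recombination in neural progenitors and their progeny. The E18.5 genotypes carried no Cre, whereas at P30 the flox allele was open to Cre in the neural lineage, and both control groups carried 1 altered Tshz1 allele. The submitters later exchanged the P30 control and mutant labels, and the corrected labels were used; the level of Tshz1 was not analysed here, so it did not check them. Each age was hybridised on its own 2 chips, and each chip held 4 controls and 4 mutants. Age can therefore not be told apart from chip, from the Nestin-Cre transgene or from the kind of Tshz1 allele. Nothing in the labels says that the 8 arrays of a group came from separate animals, so p-values measure the spread between these samples, which may be technical. Per array, 49.3% to 55.2% of E18.5 probes and 40.1% to 49.3% of P30 probes were above background, and the median raw intensity ran from 131.7 to 181.2 and from 100.2 to 129.8, respectively. In bulk bulbs, fewer cells of a type and less RNA per cell cannot be told apart.

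At P30, 3 members differed between mutant and control bulbs: Rgs12 and Gnb4 were lower in mutants and Gng7 was higher. Of 30 members tested, 1 rose and 2 fell (limma, Benjamini-Hochberg adjustment over all 9928 genes tested, adjusted p under 0.05). Among all genes tested the same rule called 4.33%, with 2% higher and 2.33% lower. Rgs12 showed the largest fall and Gng7 the largest rise of the members, and the upstream bases of their annotated start sites are printed here so that the genes concerned can be identified by sequence.
Rgs12 first start, chr5:34949198-34949447, plus strand: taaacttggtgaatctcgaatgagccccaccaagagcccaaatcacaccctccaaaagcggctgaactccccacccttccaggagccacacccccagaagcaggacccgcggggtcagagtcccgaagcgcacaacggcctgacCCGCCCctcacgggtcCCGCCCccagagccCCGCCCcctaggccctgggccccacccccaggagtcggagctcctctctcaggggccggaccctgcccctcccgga
Rgs12 second start, chr5:34998828-34999077, plus strand: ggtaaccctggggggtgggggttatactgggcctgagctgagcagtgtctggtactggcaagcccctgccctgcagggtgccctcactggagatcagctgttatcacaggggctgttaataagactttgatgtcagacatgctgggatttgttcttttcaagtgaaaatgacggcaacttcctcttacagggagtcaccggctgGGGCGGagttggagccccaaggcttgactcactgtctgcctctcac
Gng7 first start, chr10:81014926-81015175, minus strand: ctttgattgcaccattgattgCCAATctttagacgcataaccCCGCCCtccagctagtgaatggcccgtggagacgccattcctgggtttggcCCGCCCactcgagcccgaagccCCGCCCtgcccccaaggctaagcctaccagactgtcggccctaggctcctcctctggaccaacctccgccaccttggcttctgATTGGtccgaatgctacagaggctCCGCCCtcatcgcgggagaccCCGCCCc
Gng7 second start, chr10:81001366-81001615, minus strand: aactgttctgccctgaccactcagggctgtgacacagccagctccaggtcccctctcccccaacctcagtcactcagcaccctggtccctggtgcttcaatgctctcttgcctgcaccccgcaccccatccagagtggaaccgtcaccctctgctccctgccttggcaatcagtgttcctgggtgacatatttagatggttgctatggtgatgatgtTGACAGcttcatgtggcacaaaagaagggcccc
The sequences are the 250 bases before each start, written 5′ to 3′ on the strand of the gene, from RefSeq on build GRCm38.p6. Of the 31 members, 26 had a promoter in that RefSeq table. Capitals mark matches, on either strand, to 4 motifs, and no matches to different motifs overlapped. One motif was the GC box, with the letters GGGCGG. Another was the promoter box named for its letters, CCAAT. The cyclic AMP response element was searched as TGACGTCA. The core recognised by Meis proteins was searched as TGACAG. The first Gng7 start had 5 GC boxes and 2 CCAAT boxes, and its second start had 1 Meis core. The first Rgs12 start had 3 GC boxes and the second had 1. Of 32851 promoters of the same length, 32.7% held a GC box, 33.8% a CCAAT box, 15.9% a Meis core and 1.5% a cyclic AMP response element. The array probe for each gene does not show which start was used.

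Rgs12 is a large Rgs protein that, besides its Rgs domain, carries a GoLoco motif that holds Gi alpha subunits in the GDP-bound state. In P30 controls its log2 intensity was 8.32 at the lowest, 8.57 at the median and 8.97 at the highest of 8 arrays, and in mutants it was 6.55, 7.08 and 7.51. Every mutant array lay below every control array. The means were 8.60 ± 0.23 and 7.03 ± 0.34 (SD, n = 8 each), so that Rgs12 fell by 1.57 on the log2 scale (SE 0.16), a 2.96-fold difference with an adjusted p of 1.88e-06. The log2 change was -1.62 within the first P30 chip and -1.52 within the second. Groups that did not overlap were found for 1.12% of all genes tested, and among the members only for Rgs12.

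Gng7 encodes a gamma subunit that in the mouse striatum pairs with Golf and is needed for its stable expression. Its P30 controls lay between 9.0 and 9.90 with a median of 9.60, and its mutants between 9.74 and 11.45 with a median of 10.84. A single mutant array, replicate 7 at 9.74, lay within the range of the controls, and the other mutant arrays lay above it. Mean log2 intensities were 9.57 ± 0.29 in controls and 10.77 ± 0.48 in mutants (SD, n = 8 each), a rise of 1.2 (SE 0.20), or 2.3-fold, with an adjusted p of 0.000464. Within the chips the log2 change was 1.24 and 1.16. Another 2 probes for Gng7 were above background on at most 1 of 32 arrays and were not tested.

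Gnb4 encodes a beta subunit that forms dimers with several gamma subunits. Control arrays ranged from 7.55 to 8.78 with a median of 8.59, and mutant arrays from 6.81 to 8.52 with a median of 7.51. The ranges overlapped. Control replicate 5 was the lowest control at 7.55, the other controls lay at 8.39 or above, and of the mutants only replicate 6 at 8.52 reached that level. Mean log2 intensity was 8.47 ± 0.39 in controls and 7.56 ± 0.59 in mutants (SD, n = 8 each); Gnb4 fell by 0.91 (SE 0.23), or 1.88-fold, with an adjusted p of 0.0205. A second Gnb4 probe, tested on its own among 12950 probes, fell by 0.87 (SE 0.20, adjusted p 0.0123). The log2 change of the first probe was -1.15 within one chip and -0.68 within the other, and the call was lost in the second chip alone (adjusted p 0.435), with median scaling in place of quantile normalization and without the filter on dim probes.

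**Figure D1:**
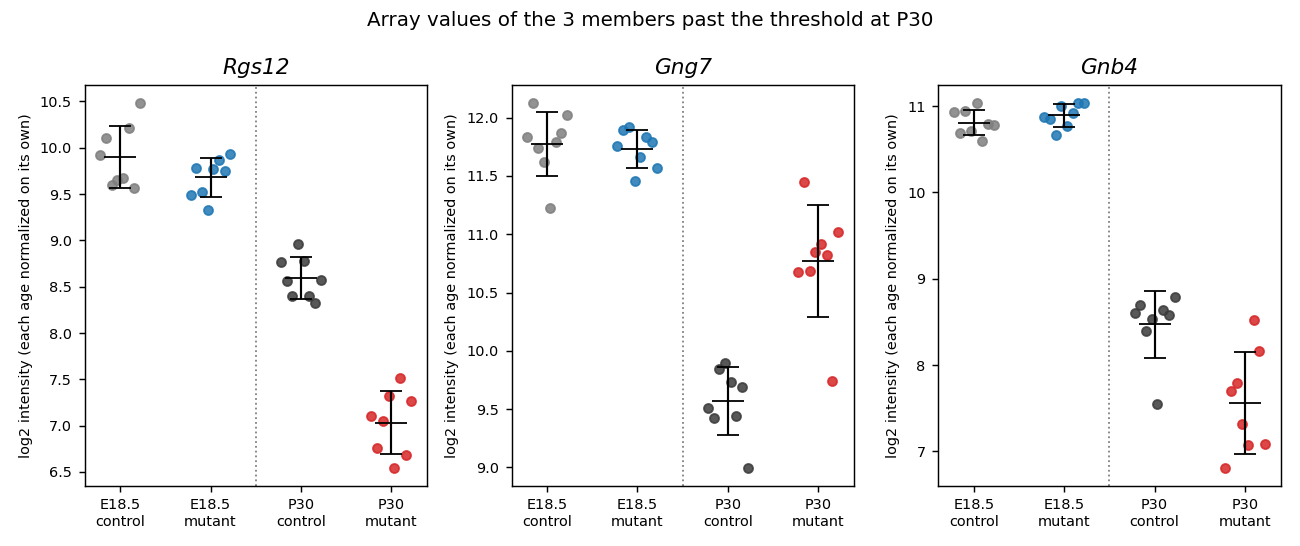
Log2 intensity of Rgs12, Gng7 and Gnb4 (vertical axes) on each of the 8 arrays of the 4 groups, with each age normalized on its own, so that levels are comparable within an age only; black bars are the mean ± SD. All P30 mutant arrays of Rgs12 lie at or below 7.51 and all P30 controls at or above 8.32, while 1 Gng7 mutant array (9.74) lies among the controls and the Gnb4 groups overlap.

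The other members did not pass the test at P30. By the 1 probe used for each gene, all 8 alpha subunits had positive mutant changes, from 0.13 to 0.53 with a median of 0.31, but 0 passed, and the direction of these probes was the same under the 4 ways of scaling the arrays. The other 2 Gnas probes tested had changes of -0.15 and -0.26, opposite to the probe used. Over all genes tested, 51.8% of changes were positive and the median change was 0.01. The largest alpha value was that of Gna12, at 7.01 ± 0.32 in controls and 7.55 ± 0.48 in mutants (SD, n = 8 each). That difference of 0.53 (SE 0.20) had an adjusted p of 0.153, and the groups overlapped. The alpha subunits of Gi, Gnai2, and of Gs, Gnas, had changes of 0.38 and 0.29, and Gna13, of the same subfamily as Gna12, had 0.34. For Gnaq and Gna11, which activate phospholipase C-beta, the changes were 0.45 and 0.21, and for Gnaz, the alpha subunit of Gz, 0.13. The Gnaq value (SE 0.53) is uncertain, because its arrays fell into 2 separate ranges, as described below for age. The low range held 2 of 8 P30 controls and 1 of 8 P30 mutants, so the sign and size of this change rest on few arrays. Gnat1, the alpha subunit of rod transducin, was above background on 2 control and 5 mutant arrays at P30 and had a change of 0.22. Gnao1, outside the rule, had a change of 0.23 with an adjusted p of 0.611.

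Among the beta subunits other than Gnb4, the common neuronal subunits Gnb1 and Gnb2 had changes of -0.07 and 0.13. Gnb5, which differs from other beta subunits in binding Rgs proteins of the R7 class in place of a gamma subunit, had a change of -0.54 (SE 0.21, adjusted p 0.164), from 11.38 ± 0.44 in controls to 10.84 ± 0.43 in mutants (SD, n = 8 each). A second Gnb5 probe, tested on its own, fell by 0.77 (SE 0.20) with an adjusted p of 0.0241, so the 2 probes have the same direction and fall on opposite sides of the threshold. Gng2, a widely expressed gamma subunit, had a change of 0.61 (SE 0.23, adjusted p 0.164), and its second probe had 0.50 (adjusted p 0.153). The gamma subunits Gng3, Gng5 and Gng10 had changes of 0.20, 0.23 and -0.19. Gng11 was above background on 0 of 16 P30 arrays and was not tested there. Of the 12 Rgs proteins other than Rgs12, 8 had positive and 4 negative changes, from -0.53 for Rgs5, an Rgs protein of pericytes, to 0.48 for Rgs4, an abundant neuronal regulator of Gi and Gq signalling.

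Markers of several cell types also differed at P30 between mutant and control bulbs. The summed linear intensity of 5 markers of striatal medium spiny neurons, the cells for which Gng7 is best known, was 884 to 1141 in controls and 1486 to 2056 in mutants, without overlap. Of the 5, Tac1 (log2 change 1.49) and Ppp1r1b (0.81) rose. Drd1 (0.39), Drd2 (0.49) and Pde10a (-0.18) did not pass. Ppp1r1b and Tac1 had the highest mean intensities of the 5 and so weigh most in the sum. Microglial markers summed to 1755 to 3097 in controls and 2733 to 7156 in mutants, and 4 of 9 rose, namely C1qa, C1qb, C1qc and Trem2. The mitral and tufted cell list summed to 13790 to 20929 and 18832 to 29274, with 2 of 7 higher (Slc17a7 and Tbr1) and 1 lower (Doc2g). Tbx21, Eomes, Cdhr1 and Reln of that list did not pass. Slc17a7 is also on the list of cortical excitatory neurons, of which 1 of 4 tested rose. That list summed to 1767 to 4305 in controls and 3531 to 6126 in mutants. Of 10 bulb interneuron markers tested, Th rose and Meis2 fell, and the sums overlapped. Of 8 astrocyte markers 1 rose (Gfap), of 7 pericyte and vascular smooth muscle markers tested 1 rose (Notch3), and the sums of both lists overlapped between the groups. The part of these cell types in the changes of Rgs12, Gng7 and Gnb4 was not tested.

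At E18.5, 0 of the 31 members tested passed the threshold, where the background was 0.581% of 10852 genes. Without adjustment, limma gave 4 of the 31 members a p under 0.05, where 8.96% of all genes had one, so this count is near the background. The smallest adjusted p was 0.366, the value of Rgs2, which acts mainly on Gq: its controls ranged from 8.24 to 8.74 with a median of 8.39 and its mutants from 8.40 to 9.12 with a median of 8.78, and the groups overlapped. The difference was 0.32 (SE 0.11), with 0.04 within one chip and 0.60 within the other. The remaining 3 were Gna13 with a change of 0.36 (SE 0.17), Rgs3 with 0.27 (SE 0.12) and Rgs8 with -0.27 (SE 0.11). The direction of Rgs3 is uncertain, because its other 3 probes tested had changes of -0.37, -0.18 and -0.09. Rgs3 and Rgs8 are, like Rgs2 and Rgs4, Rgs proteins of the R4 class. No member had groups that did not overlap at E18.5, against 0.341% of all genes. Changes of the members ranged from -0.46 to 0.44 with a median of -0.04, of which 13 were positive and 18 negative. For the 3 members that differed at P30, the 95% confidence intervals at E18.5 were -0.51 to 0.07 for Rgs12, -0.29 to 0.20 for Gng7 and -0.11 to 0.27 for Gnb4. Of 10 bulb interneuron markers tested at E18.5, Gad1, Th and Slc32a1 fell in mutants.

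**Figure D2:**
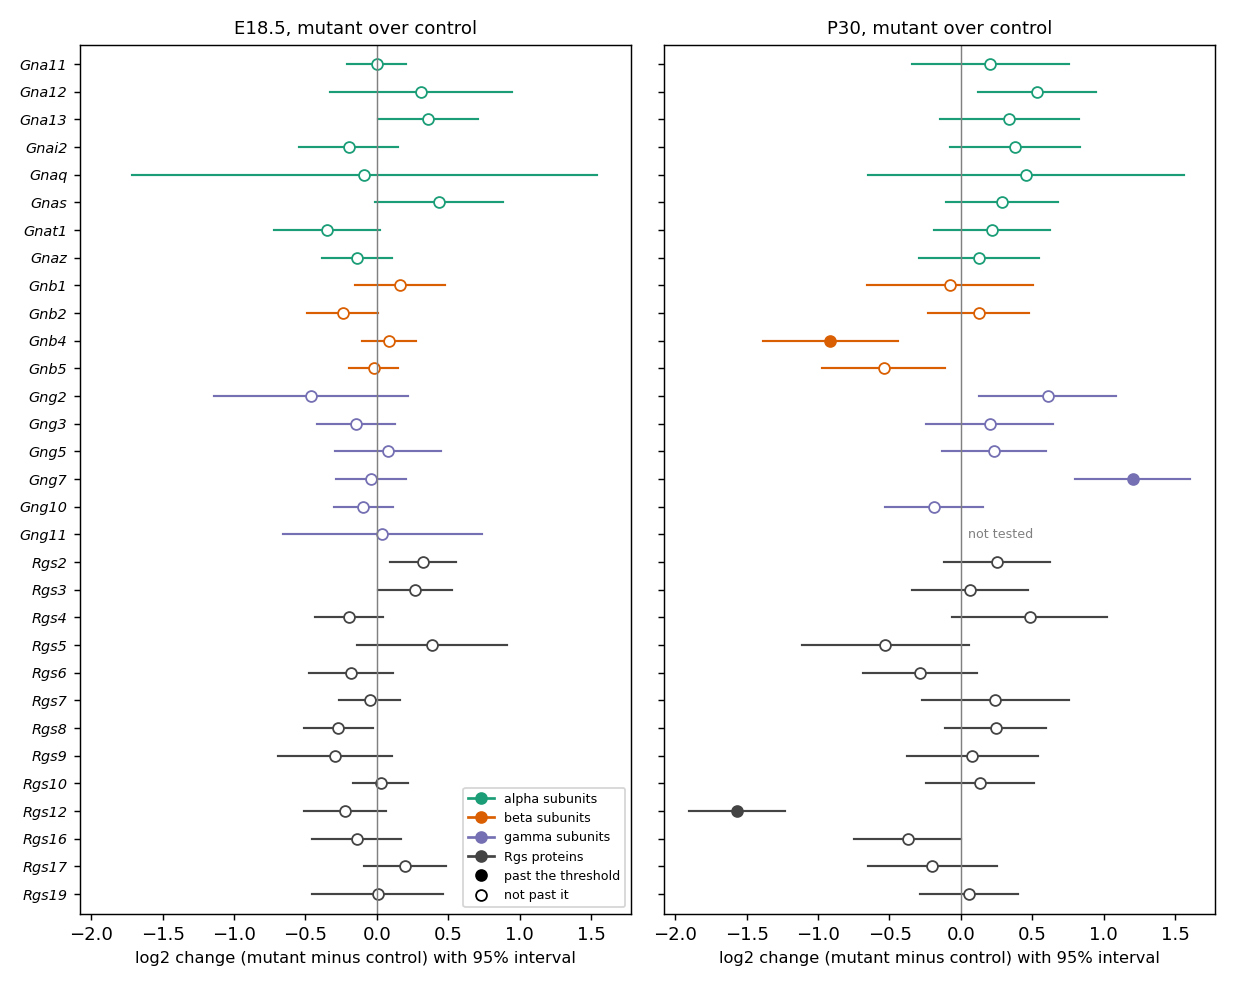
Log2 change of each member between mutant and control (horizontal axis, with the 95% confidence interval from limma) at E18.5 on the left and P30 on the right, grouped as alpha, beta and gamma subunits and Rgs proteins; filled points passed the adjusted p threshold of 0.05. At E18.5 no point is filled, and at P30 Rgs12 (-1.57), Gng7 (1.2) and Gnb4 (-0.91) are filled. The probes used for the 8 alpha subunits lie to the right of 0, although the other 2 Gnas probes, not plotted, had negative changes.

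The difference between the ages was tested as an interaction on all 32 arrays, normalized together, and Rgs12, Gng7 and Gnb4 passed. The P30 arrays behind the calls above also enter this test, so it is not independent of those calls. The interaction called 1 of 31 members higher and 2 lower, against a background of 1.85% of 11312 genes, with 1.03% higher and 0.813% lower. The mutant change of Rgs12 was lower at P30 than at E18.5 by 1.43 on the log2 scale (-1.43, SE 0.22, adjusted p 7.57e-05). For Gng7 the mutant change was 1.19 higher at P30 (SE 0.23, adjusted p 0.00167). For Gnb4 it was -1.04 (SE 0.27, adjusted p 0.0292), with adjusted p from 0.00396 to 0.193 over all alternatives. The call was lost with median scaling, without the filter on dim probes, and without E18.5 control replicates 6 and 8 together. The second Gnb4 probe, tested on its own among 15105 probes, had -1.16 (SE 0.28, adjusted p 0.0182). Of the members, Gng2 was next by p with 1.12 (SE 0.43, adjusted p 0.195), which did not pass. The interaction compares both ages and both kinds of Tshz1 allele at once, which cannot be told apart.

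In controls, the members changed in both directions between the ages. With an adjusted p under 0.05 and at least a 2-fold change, 5 of 31 members rose at P30 (Gnaq, Rgs4, Rgs10, Gnb5 and Rgs5) and 4 fell (Gng2, Gnai2, Gnb2 and Gnb4). The background was 23.9% of 11312 genes, with 11.3% higher and 12.6% lower. At any size, 8 members rose and 14 fell past the adjusted p, against a background of 61.8%. Where groups without overlap are stated for age, the share over all genes is not given. The values in the following paragraphs are from all 32 arrays normalized together and are not comparable with the levels above, which were normalized within each age.

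Of the alpha subunits, Gnai2, the most widely expressed inhibitory alpha subunit, ranged from 11.19 to 12.77 in E18.5 controls with a median of 11.64 and from 9.66 to 10.81 in P30 controls with a median of 10.01. The groups did not overlap, and Gnai2 fell by 1.70 (SE 0.20), or 3.25-fold, with an adjusted p of 3.74e-09. Smaller falls, under 2-fold, were measured for Gna11 (-0.57) and Gnaz (-0.57). The test did not call a difference in Gna12 (0.45), Gna13 (-0.04), Gnat1 (-0.31) or Gnas (0.03). Another Gnas probe, above background on all 32 arrays, rose by 1.23 past the adjusted p, so the Gnas probes differ among themselves. A further one was above background on 11 arrays, all of them P30, and its change is not given. Gnao1, outside the rule, fell by 0.53.

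Gnaq was called higher at P30, by 2.02 (SE 0.70, adjusted p 0.0123), but its arrays fell into 2 separate ranges rather than around a group mean. On 15 arrays its log2 intensity was 8.42 or less and on 17 it was 10.28 or more, a gap of 1.86 that was the widest between neighbouring arrays of any member. The low range held 6 of 8 E18.5 controls, 6 of 8 E18.5 mutants, 2 of 8 P30 controls and 1 of 8 P30 mutants. At E18.5 the high arrays were replicates 7 and 8 of both controls and mutants, all on the second chip. At P30 the low arrays were control replicates 2 and 7 and mutant replicate 6. The SD of Gnaq was 1.82 in E18.5 controls and 1.49 in P30 controls, so the group means rest on how many arrays fell in each range. A second Gnaq probe was above background on 4 arrays, all E18.5, and its change is not given. With median scaling the Gnaq call was lost (adjusted p 0.0796).

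**Figure D3:**
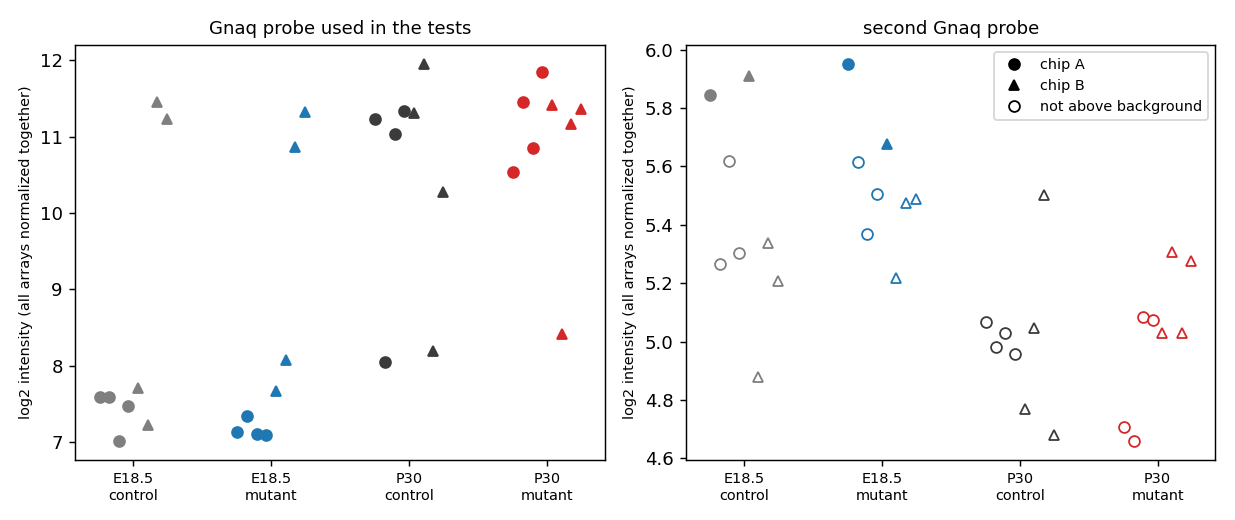
Log2 intensity of the Gnaq probe used in the tests (left) and of a second Gnaq probe (right, on its own axis range) on all 32 arrays normalized together, by group; circles are the first chip of each age, triangles the second, and open symbols arrays on which the probe was not above background. The first probe leaves the range between 8.42 and 10.28 empty, with 12 of 16 E18.5 arrays below it and 13 of 16 P30 arrays above it.

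The beta subunits split between Gnb5 and the rest. Gnb5 ranged from 10.48 to 10.80 in E18.5 controls, with a median of 10.71, and from 11.34 to 12.54 in P30 controls, with a median of 12.18, without overlap. It rose by 1.38 (SE 0.15), or 2.6-fold, with an adjusted p of 1.23e-09, and its second probe rose by 0.86. Gnb2 went from 12.86 ± 0.29 to 11.70 ± 0.27 (SD, n = 8 each), a fall of 1.16 (SE 0.14, adjusted p 1.03e-08) without overlap. Gnb4 went from 10.30 ± 0.15 to 9.28 ± 0.40 (SD, n = 8 each), a fall of 1.03 (SE 0.19, adjusted p 1.59e-05) that lies close to the 2-fold limit: it was -0.99 without E18.5 control replicate 5 and -0.89 without P30 control replicate 5. By the first probe the groups did not overlap, and the call was also lost without background correction. The second Gnb4 probe had a change of -0.30 (adjusted p 0.181). Gnb1 fell by 0.54.

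Of the 6 gamma subunits 0 rose and 1 fell past both limits, and 4 fell past the adjusted p at any size. Over all 11312 genes tested, 12.6% fell past both limits and 3639 fell past the adjusted p at any size. Gng2 had the largest change of any member: 9.51 to 11.35 with a median of 10.05 in E18.5 controls and 7.28 to 8.71 with a median of 7.83 in P30 controls. These groups did not overlap, and Gng2 fell by 2.34 (SE 0.30), or 5.07-fold, with an adjusted p of 2.81e-08; the second Gng2 probe fell by 2.44. Gng10 fell by 0.99, Gng7 by 0.94 and the neuronal subunit Gng3 by 0.79, all under 2-fold. For Gng5 the change was 0.12. Gng11 was above background on 4 of 8 E18.5 controls and 0 of 8 P30 controls, so its change is not given as a fold.

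Among the Rgs proteins, rises outnumbered falls with quantile normalization, whereas under median scaling 5 of 13 changes were positive. Of 13, 3 rose and 0 fell past both limits, and 6 rose and 4 fell past the adjusted p at any size. Over all 11312 genes tested, 11.3% rose and 12.6% fell past both limits, and 3353 rose and 3639 fell at any size. Whether the classes differ from each other was not tested. Rgs10, a short Rgs protein that is abundant in microglia as well as in neurons, went from 9.93 ± 0.15 to 11.44 ± 0.24 (SD, n = 8 each), a rise of 1.51 (SE 0.14, adjusted p 1.96e-11) without overlap. Rgs4 ranged from 8.79 to 9.47 in E18.5 controls and from 10.06 to 11.61 in P30 controls, and its medians were 9.43 and 11.05. It rose by 1.60 (SE 0.20), or 3.04-fold, with an adjusted p of 2.35e-08. Rgs5 rose by 1.06 (SE 0.28, adjusted p 0.00154), from 8.10 ± 0.69 to 9.16 ± 0.68 (SD, n = 8 each), but the groups overlapped and the change fell under 2-fold without any one of E18.5 control replicate 6 (0.84) or P30 control replicates 1 (0.97), 6 (0.95) or 8 (0.99). Microglial markers were also higher in P30 controls, with 5 of 9 past both limits and a summed intensity of 2978 to 5246 against 1472 to 2765. This was not particular to microglia. Higher were also 6 of 6 oligodendrocyte, 4 of 8 astrocyte, 2 of 3 olfactory sensory neuron axon, 2 of 10 bulb interneuron and 1 of 5 striatal markers. Lower were 4 of 4 cortical excitatory, 3 of 7 endothelial and 3 of 5 blood markers. Of 7 mitral and tufted cell markers, 1 was higher and 3 lower. Pericyte and vascular smooth muscle markers had 0 of 11 higher and 4 lower, namely Abcc9, Anpep, Notch3 and Pdgfrb. The part of these cell types in the changes of Rgs10 and Rgs5 was not tested.

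The R7 class, which consists of Rgs6, Rgs7, Rgs9 and Rgs11 and works as an obligate dimer with Gnb5, was measured through Rgs6, Rgs7 and Rgs9. All 3 rose past the adjusted p at P30, each by less than 2-fold: Rgs9 by 0.90 (SE 0.22, adjusted p 0.000669), Rgs6 by 0.88 (SE 0.20, adjusted p 0.000203) and Rgs7 by 0.75 (SE 0.19, adjusted p 0.00113). Among all 11312 genes tested, 3353 rose past the adjusted p at any size. Rgs6 was near background, with 3 of 8 E18.5 control and 5 of 8 P30 control arrays above it. Of the other G protein pathway genes, Gpr158, an orphan receptor that binds the R7 dimer, rose by 2.60 (adjusted p 6.29e-18) and Rgs7bp, its membrane anchor in neurons, by 1.63 (adjusted p 2.8e-06), while Rgs9bp, its anchor in the retina, had 0.13 and did not pass. With median scaling, Gnb5 (0.72), Rgs6 (0.73) and Rgs9 (0.28) remained positive and Rgs7 turned to -0.02.

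Other Rgs proteins were lower in P30 controls. The R4 class changed in both directions. Rgs2 fell by 0.76, Rgs16 by 0.74, Rgs3 by 0.42 and Rgs8 by 0.35, whereas Rgs4 and Rgs5 of the same class rose by 1.60 and 1.06. Rgs3 is uncertain, because 2 of its other probes rose by 0.81 and 0.99 past the adjusted p. The regulators of the RZ class, Rgs17 and Rgs19, had changes of -0.01 and -0.05 and did not pass. Rgs12, the member with the largest mutant change at P30, had with quantile normalization control means at the 2 ages of 9.39 ± 0.34 and 9.40 ± 0.23 (SD, n = 8 each), a change of 0.02 with a 95% confidence interval from -0.30 to 0.33.

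The direction of changes with age depends on how the arrays were scaled. When each array was set to the same median, the median change of all genes between the ages was -0.53, and 14 members were called in place of 9. Of all genes called, 13.9% were then higher, against 47.4% with quantile normalization. Gnaq, Rgs4, Rgs10, Gnb5 and Rgs5 were no longer called and Gnas, Gna12, Gng5, Rgs7 and Rgs12 changed sign. Relative to the shift of all genes, Gnb5 was still higher at P30 by 1.25, Rgs10 by 1.32 and Rgs4 by 1.40, while the values of Gng2 and Gnai2 were -2.56 and -1.95. The fall of Gnai2, Gnb2, Gnb4 and Gng2 was called under both scalings.

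**Figure D4:**
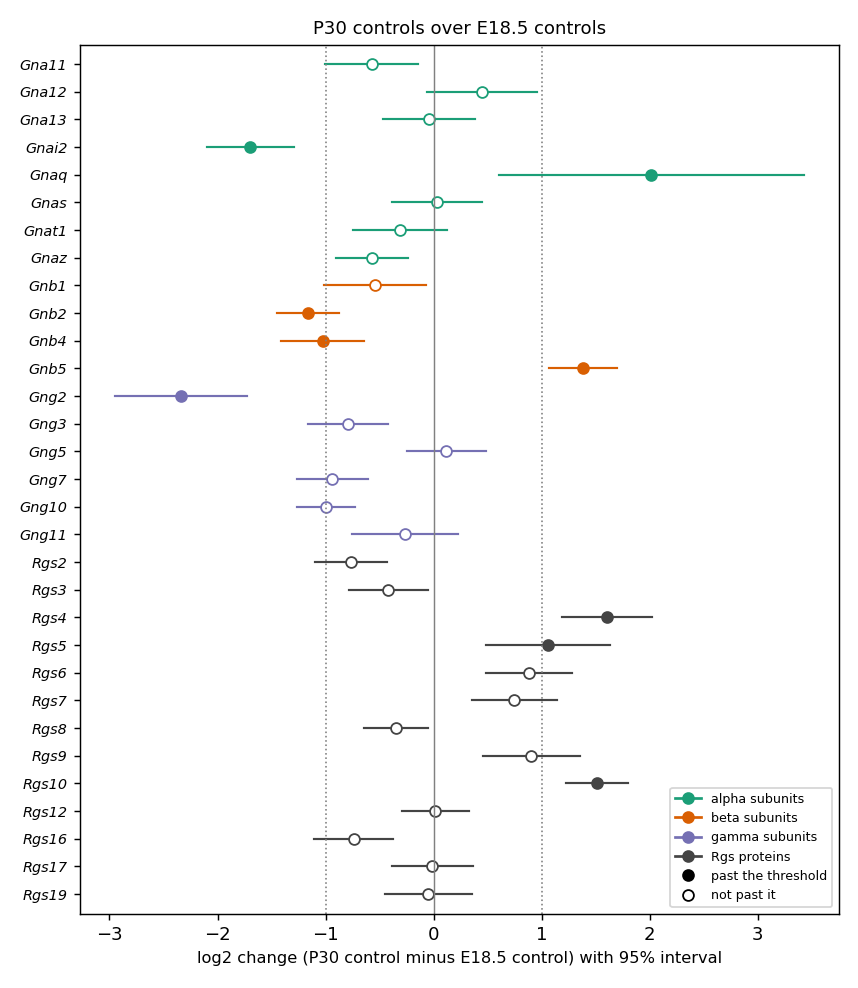
Log2 change of each of the 31 members between P30 and E18.5 controls (horizontal axis, with the 95% confidence interval from limma), by subunit class; filled points passed the adjusted p threshold and a 2-fold change, whose limits are dotted. The largest fall is that of Gng2 (-2.34), the gamma subunits lie at or left of 0.12, and Gnaq has the widest interval, from 0.60 to 3.43.

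Other genes of the pathway were taken from a list of 50 effectors, kinases, arrestins and accessory proteins, of which 41 were on the array. At E18.5, 0 of 26 tested passed. Without adjustment, limma gave 6 of the 26 a p under 0.05, where 8.96% of all genes had one. The list was chosen with earlier results of these data known, so this count shows nothing about the list as a whole. Of these 6, Gpsm1 (-0.41, SE 0.10), Gprin1 (-0.36) and Kcnj3 (-0.35, SE 0.13) had negative mutant changes. Adcy2 (0.33), Plcb4 (0.41) and Gpsm2 (0.42) had positive ones. At P30, 1 of 25 rose and 2 fell in mutants, against a background of 2% higher and 2.33% lower. Gpsm1, an accessory protein with GoLoco motifs that, like that of Rgs12, hold Gi alpha subunits in the GDP-bound state, ranged from 10.67 to 11.89 in controls and from 9.01 to 10.02 in mutants without overlap. Gpsm1 fell by 1.5 (SE 0.18, adjusted p 1.5e-05), and its interaction with age was -1.01 (SE 0.20, adjusted p 0.00263). The related GoLoco protein Gpsm2 had a change of 0.14 and did not pass. Kcnj3, a subunit of the potassium channels opened by beta-gamma dimers, fell by 0.87 (SE 0.22, adjusted p 0.0205), and its groups overlapped. Adcy8, an adenylyl cyclase stimulated by calcium, rose by 0.73 (SE 0.20, adjusted p 0.0407), also with overlap. In the control age comparison 5 of 26 rose and 3 fell, against a background of 11.3% higher and 12.6% lower. The 3 largest rises were those of Gpr158, Gpsm1 (1.70) and Rgs7bp. The 3 falls were those of the receptor kinase Grk6 (-1.55), of Gpsm2 (-1.31) and of the adenylyl cyclase Adcy6 (-1.28). Among P30 controls Grk6 was above background on 4 of 8 arrays and Gpsm2 on 3 of 8, so both lay near background there.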

How the data were processed

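Total RNA of olfactory bulbs was labelled as biotinylated cRNA and hybridised to 32 bead arrays. GenomeStudio is named in the submitters' processing notes, with its version and the genome build not given in the sources used here. Per the file headers, each array has for every probe an intensity and a detection p-value, as deposited by the authors without normalization. The authors' deposited normalized intensity table, with 25.7% of values below 0, was used as an alternative only. Of 25697 probes, 23978 had 1 gene name, 0 several and 1719 none.

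The raw values were normalized by the neqc function of limma 3.58.1 (R 4.3.3; offset 16, background from detection p-values, quantile normalization, log2), within each age for the mutant comparisons and over all arrays otherwise. Probes above background (0.05) on 4 or more of the fitted arrays were kept, and each gene was read by its probe with the highest mean. This left 10852 genes at E18.5, 9928 at P30 and 11312 over both ages. Tests were two-sided (lmFit and eBayes, Benjamini-Hochberg over all genes, threshold 0.05; with age also 2-fold). The procedure was tested on simulated data. The number of arrays limits the precision.

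The members, gene lists and tests were chosen with earlier results of these data known. Named with statistics are members past the threshold in a mutant comparison or in the interaction, filled up to 4 by p. The largest changes with age and pathway genes past the threshold are named too. Most other members are given by class with their changes. Outside this rule, statistics are also printed for some members, among them Gnb5 and Gng2 at P30 and Rgs6, Rgs7 and Rgs9 with age. Deviations of same-numbered control and mutant arrays correlated at 0.118 to 0.355 at E18.5 (over 0.1 in 8 of 8 pairs) and at -0.070 to 0.417 at P30 (6 of 8). Within chips the correlations were -0.080 to 0.303 and -0.372 to 0.389, over 0.1 in 4 of 8 pairs at each age. Nothing in the labels says that the numbers mark a shared litter or day. The main fits had no replicate block, which was run as an alternative at both ages. Alternatives changed the background correction, scaling, source table, filter, probe choice, chip and replicate blocks, and the arrays included.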

Additional observations from a re-analysis of the deposited data

Results flagged for a closer look

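Among 64 groups of 8 arrays of the named members, 10 held an array far from the others by Dixon's criterion; chance gives about 1 in 20. E18.5 control replicate 6 was such an array in 4 members: it was the lowest control for Gna12 (5.42), Rgs4 (9.30) and Rgs5 (6.98) and the highest for Gnb2 (13.89). Another low E18.5 array was mutant replicate 7 for Rgs4 (9.24). At P30 the lowest array stood apart for Gnb4 in control replicate 5 (7.55), and in mutants for Gng7 in replicate 7 (9.74), Gnaq in replicate 6 (7.63), Rgs10 in replicate 5 (9.85) and Rgs2 in replicate 1 (6.11). All are log2 intensities normalized within each age.

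The mutant changes of Rgs12 (difference -1.43), Gng7 (1.19) and Gnb4 (-1.04) differed between P30 and E18.5 by the interaction test in limma. The Gnb4 difference was lost without E18.5 control replicates 6 and 8 (-0.99).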

How the results depend on the processing

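Counts of genes past the threshold moved beyond 1.5 times in 9 cases. At E18.5 it was 63, with 31 from the first chip alone and 4 from the second. At P30 it was 430, with 137 and 186. In the interaction it was 209, with 84 under median scaling, 137 without E18.5 control replicates 6 and 8, 364 with the chip as a fixed block and 380 with the replicate block. With age it was 2698, with 1585 when no background was corrected. With the replicate block 62 genes passed at E18.5 and 539 at P30, and no call of a member changed. Leaving out 1 array at a time gave 50 to 74 genes at E18.5, 340 to 469 at P30, 166 to 271 in the interaction and 2588 to 2804 with age.

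Of the counts of members called, 135 stayed within 1.5 times and 1 moved, to 14 from 9 with age under median scaling. For single named members, 724 of 744 alternative fits kept the side of the threshold, 20 lost a call, 0 gained one and 0 reversed. The members named with age were those already called there, so they could not gain a call. Members not named in a comparison did gain calls in some alternatives. With age these included Gng10, Gng7 and Rgs9 when an array was left out. With every probe tested, Gnb5 gained a call at P30 and Gnas with age. Rgs12 and Gng7 kept their calls at P30 and in the interaction in every alternative, with adjusted p up to 0.0461 for Gng7 at P30. Gnb4 lost its P30 call in 3 of 27, with adjusted p from 0.00542 to 0.435, and Rgs5 its age call in 7 of 40. The causes were not tested. The chip as a fixed block in the interaction and as a random block with age, under which all 9 age calls held, were added after seeing the data. Dim members (Gng11, Gnat1, Rgs6 and Rgs19) lie near background, which limits any change seen in them.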
